A study of Mus musculus with 4 samples.

Results

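The complement genes described here, in mouse testis RNA, are C1qa, C1qb, C1qc, C1ra and C4b of the classical pathway, C3 with Cfd and Cfp of the alternative pathway, and the inhibitor gene Serping1. They are 9 genes, taken by symbol from a table of expression values with each symbol on a single row, out of its 44509 named genes. All 9 were among the 19837 genes tested, those with 2 or more of the 4 libraries at or above 1 FPKM. FPKM counts sequenced fragments relative to gene length and library size. The libraries came from testes of mice with busulfan-induced oligozoospermia that also received Cus-1, a resin glycoside from a cuscutae extract (libraries Cus-1 1 and Cus-1 2), and from testes of such mice that had no Cus-1 (busulfan 1 and busulfan 2). Busulfan, which both groups received, is an alkylating agent toxic to the dividing cells of the germ line. The labels name no strain, age, dose, time or batch, and do not say whether the libraries of a group came from separate animals, so p-values measure only the spread between these libraries, which may be partly technical. The sample titles use other short codes than the source labels, and the group of each library rests on the source label alone.

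Complement is a cascade of plasma and tissue proteins that tag cells and debris for uptake. In the classical pathway C1q binds its target and the proteases C1r and C1s then cut C4 and C2. The alternative pathway starts from C3 itself, with factor D (Cfd) as its protease and properdin (Cfp) as the protein that holds its convertase together. C1 inhibitor (Serping1) blocks C1r and C1s. Most plasma complement comes from the liver, while C1q is made mainly by macrophages and dendritic cells, and factor D is best known as adipsin of fat cells.

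The promoters of 4 members are shown because C1qb and C1qc are neighbours with closely matched levels, while C3 and Cfd had the lowest log2 fold changes of the 9. They are RefSeq sequences on GRCm38.p6, the assembly of mm10, each running from 250 bases before the annotated start of the gene to 50 after it, and 6 of the 9 members had an entry. Capitals mark matches, on either strand, to AGGAAGT (an ETS-family core) in C1qb and C1qc and to TTNNGNAAT (C/EBP) or TATAAA in C3 and Cfd.
C1qb (chr4:136886151-136886450, minus strand): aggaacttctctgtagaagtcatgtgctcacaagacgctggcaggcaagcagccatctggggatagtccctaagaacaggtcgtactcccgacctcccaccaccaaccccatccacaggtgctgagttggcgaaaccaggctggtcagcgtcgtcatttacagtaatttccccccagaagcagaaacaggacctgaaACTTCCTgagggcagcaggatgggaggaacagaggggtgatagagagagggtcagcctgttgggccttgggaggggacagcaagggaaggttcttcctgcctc
C1qc (chr4:136892865-136893164, minus strand): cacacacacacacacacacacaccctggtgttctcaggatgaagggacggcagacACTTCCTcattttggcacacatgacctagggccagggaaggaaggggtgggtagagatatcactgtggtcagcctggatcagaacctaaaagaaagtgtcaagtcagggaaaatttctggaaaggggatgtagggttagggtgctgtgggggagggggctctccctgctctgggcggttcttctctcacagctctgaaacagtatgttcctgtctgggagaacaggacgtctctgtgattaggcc
C3 (chr17:57228087-57228386, minus strand): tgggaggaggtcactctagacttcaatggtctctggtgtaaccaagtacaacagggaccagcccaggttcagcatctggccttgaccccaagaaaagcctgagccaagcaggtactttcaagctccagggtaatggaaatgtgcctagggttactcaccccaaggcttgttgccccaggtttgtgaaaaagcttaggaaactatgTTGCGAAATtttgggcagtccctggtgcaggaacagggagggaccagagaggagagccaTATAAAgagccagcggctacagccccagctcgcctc
Cfd (chr10:79890603-79890902, plus strand): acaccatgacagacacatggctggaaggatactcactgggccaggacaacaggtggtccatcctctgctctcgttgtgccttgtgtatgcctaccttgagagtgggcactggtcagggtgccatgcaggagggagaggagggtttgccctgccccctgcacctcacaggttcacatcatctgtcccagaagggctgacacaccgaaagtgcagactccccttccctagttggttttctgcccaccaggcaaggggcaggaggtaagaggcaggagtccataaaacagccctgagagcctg

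The ETS core lay on the minus strand of both C1q windows, from -53 to -47 of the RefSeq start in C1qb and from -195 to -189 in C1qc, with 0 as the first transcribed base. Counted from the GENCODE M21 start, which differs from the RefSeq one in both genes, these matches lay from -66 to -60 and from -44 to -38. It was found in 9.35% of all 32851 promoter windows. C3 held a C/EBP match from -45 to -37 and TATAAA from 14 to 19, motifs found in 11.5% and 13.6% of windows, and C1ra also held C/EBP matches. Cfd held neither, and none of the 6 windows held the core of the interferon-stimulated response element (GAAA, any 2 bases, GAAA), which 3.44% of windows held. TTCNNNGAA, the STAT site, was found in C1ra alone among the 6, and in 8.30% of windows. These are letter matches and say nothing of binding in these testes.

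Summed FPKM was 726041 to 742689 per library, and library depth, estimated from the spacing of the lowest values, was 12.6 to 14.9 M fragments (M, 1e6). Germ cell markers were higher and Sertoli, Leydig, stromal and macrophage markers mostly lower in the Cus-1 libraries. The libraries of a group were not alike: elongating spermatid markers summed to 8789 FPKM in Cus-1 1 and 3120 FPKM in Cus-1 2, against 2261 and 2473 FPKM in busulfan 1 and busulfan 2. Testis identity was plain, with the Leydig cell gene Insl3 at 10265 to 22947 FPKM in all libraries, while the liver and blood protein genes summed to 1.55 and 2.35 FPKM with Cus-1 and 2.18 and 5.06 FPKM with busulfan, with Alb at 0.11 FPKM or less and Ahsg at 0.58 to 3.74 FPKM. Erythrocyte markers were not low, with sums of 293 and 262 FPKM with Cus-1 and 581 and 309 FPKM with busulfan. The part of blood in the complement values was not tested. Of the epididymal markers in the table, Crisp1 and Adam7 were at 0.27 FPKM or less and Rnase10 at 1.68 to 3.03 FPKM. In bulk RNA, fewer cells of a type and less RNA per cell cannot be told apart.

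In all 9 complement genes the higher Cus-1 library lay below the lower busulfan library, as it did in 31.7% of all tested genes, and none of the 9 passed the adjusted threshold. Of the 9, 8 were above 1 FPKM in every library, while Cfd entered the test through its busulfan values alone. The log2 fold changes were all negative, as were 47.6% of those of all tested genes. The median log2 fold change of the members was -0.71, against 0.04 over all tested genes. It was -0.65 for the 5 classical genes, -1.03 for C3, Cfd and Cfp, and -0.98 for Serping1. By limma, adjusted over all genes, the threshold of 0.05 was passed by 0 of the 9 and by 0.0% of all tested genes in either direction, and the smallest adjusted p of any gene was 0.0676. At an unadjusted limma p under 0.05 there were 6 members, all lower, where 9.96% of all genes (1975) were lower and 18.0% (3576) higher. With quantile normalization these counts over all genes were 2697 lower and 2831 higher. The count of members was 1 without busulfan 1 and 1 without Cus-1 1.

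**Figure D1:**
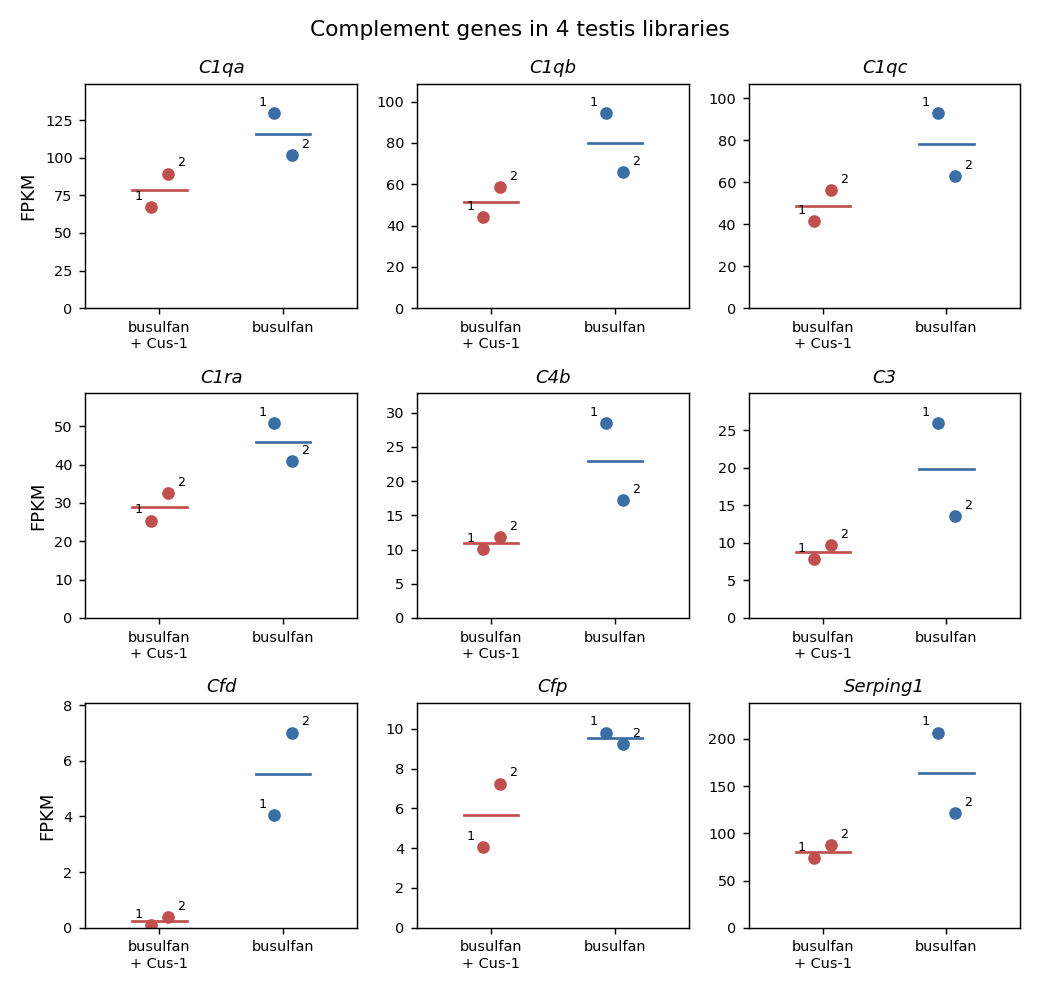
FPKM of the 9 complement genes (vertical axes, from 0) in the busulfan with Cus-1 and the busulfan libraries; points are libraries, numbered by replicate, and bars are means of 2. In every panel both Cus-1 points lie below both busulfan points, closely so for C1qa (89.5 FPKM in Cus-1 2 against 102 FPKM in busulfan 2) and far apart for Cfd (0.39 FPKM against 4.04 FPKM).

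For 8 of the 9 genes the libraries had the same order, Cus-1 1 lowest, then Cus-1 2, busulfan 2 and busulfan 1. Cfd was the exception, with busulfan 2 highest. This order itself requires both Cus-1 libraries below both busulfan libraries, as in 6296 of all tested genes. Of those 6296 genes 3852 had the order, which is 19.4% of all tested genes. The gap between the groups on the log2(FPKM + 1) scale exceeded the difference between the replicates of each group only for Cfd. For the C1q genes it was 0.16 to 0.18, against 0.41 to 0.42 between the Cus-1 libraries and 0.35 to 0.55 between the busulfan libraries.

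C1q is a hexamer of triplets, each built from the A, B and C chains that C1qa, C1qb and C1qc encode, and the genes lie side by side on the minus strand of chromosome 4 (mm10, 136880129 to 136898803, a span of 18.7 kb, per GENCODE M21). C1qa was at 67.1 and 89.5 FPKM in Cus-1 1 and Cus-1 2, against 129.9 and 102 FPKM in busulfan 1 and busulfan 2. The means were 78.3 ± 15.9 and 116 ± 19.9 FPKM (SD, n = 2 each), and the log2 fold change was -0.56 (SE 0.22, limma adjusted p = 0.178). The groups did not overlap, but Cus-1 2 stood nearer to busulfan 2 than to Cus-1 1.

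C1qb was at 43.9 and 58.7 FPKM with Cus-1, against 94.5 and 65.8 FPKM with busulfan alone (log2 fold change -0.63, SE 0.25, limma adjusted p = 0.183). C1qc was at 41.6 and 56.1 FPKM with Cus-1, against 93.05 and 63.0 FPKM with busulfan alone (-0.65, SE 0.26, limma adjusted p = 0.182). In both genes busulfan 1 stood well above the other libraries, and without it the log2 fold changes were -0.37 for C1qb and -0.38 for C1qc. That of C1qa was -0.36 without Cus-1 1. The chains kept nearly fixed proportions: per length, C1qb was at 0.655 and 0.656 of C1qa in the Cus-1 libraries and at 0.728 and 0.647 in the busulfan libraries. C1qc was at 0.948 and 0.955 of C1qb with Cus-1 and at 0.984 and 0.958 with busulfan.

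C1ra encodes the protease C1r, which C1q activates, and lies in a cluster with C1rb, C1s1 and C1s2 on chromosome 6 (124512405 to 124636085). It was at 25.4 and 32.6 FPKM with Cus-1, against 50.9 and 40.9 FPKM with busulfan alone, with means of 29.0 ± 5.09 and 45.9 ± 7.05 FPKM (SD, n = 2 each). Its log2 fold change was -0.65 (SE 0.20, limma adjusted p = 0.154). The groups were separate, but the replicates of each group stood about as far apart as the groups did. C1s1, which encodes the next protease of the chain and was chosen after its values were seen, was at 34.4 and 46.0 FPKM with Cus-1 and at 74.4 and 57.3 FPKM with busulfan (-0.70, SE 0.22, limma adjusted p = 0.156), and so stayed at 1.35 to 1.46 times C1ra in all libraries. C1rb, also named after its values were seen, was at 0.17 FPKM or less. Fragments may have been split between these duplicated genes, which makes the division between C1ra and C1rb uncertain.

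C4b encodes C4, the protein that C1s cuts and that then binds to the target, and lies on chromosome 17 (34728380 to 34743882). It was at 10.04 and 11.87 FPKM in Cus-1 1 and Cus-1 2, against 28.5 and 17.2 FPKM in busulfan 1 and busulfan 2. With means of 10.96 ± 1.29 and 22.9 ± 7.997 FPKM (SD, n = 2 each), the Cus-1 level was 47.9% of the busulfan level. The log2 fold change was -0.96 (SE 0.28, limma adjusted p = 0.152), and -0.61 without busulfan 1. Its near-identical neighbour C4a, chosen after its values were seen, went the other way, at 6.73 and 5.53 FPKM with Cus-1 and 4.21 and 4.70 FPKM with busulfan (0.38, SE 0.22, limma adjusted p = 0.272). How the authors' counting divided fragments between these copies is not given in the sources used here, so both values are uncertain.

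C3, on which all pathways converge, lies on chromosome 17 (57203970 to 57228136) and was at 7.81 and 9.70 FPKM with Cus-1, against 26.0 and 13.6 FPKM with busulfan alone. The log2 fold change was -1.03 (SE 0.34, limma adjusted p = 0.159), and -0.59 without busulfan 1. The means were 8.75 ± 1.34 and 19.8 ± 8.78 FPKM (SD, n = 2 each), the Cus-1 libraries being close to each other and the busulfan libraries not. The gene overlaps a microRNA gene, Mir6978, on the same strand, by 57 bases. C4b and C3 kept a like ratio, 1.29 and 1.22 with Cus-1 against 1.10 and 1.27 with busulfan.

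Cfd, on chromosome 10 (79890853 to 79892655), encodes factor D, the protease that cuts factor B. It was at 0.09 and 0.39 FPKM with Cus-1, against 4.04 and 7.01 FPKM with busulfan alone. The Cus-1 mean of 0.240 ± 0.212 FPKM was 4.34% of the busulfan mean of 5.53 ± 2.10 FPKM (SD, n = 2 each). With a coding transcript of 922 bases and the estimated depths, these values correspond to about 1.23 and 4.51 fragments with Cus-1 and about 47.1 and 86.9 fragments with busulfan, so the Cus-1 levels rest on very few fragments. Cfd met the filter on low values through the busulfan libraries alone, both Cus-1 values being under 1 FPKM, so its place among the tested genes is tied to the difference itself. Its log2 fold change was -2.37 (SE 0.33, limma adjusted p = 0.152). With a pseudocount of 0.1 in place of 1 it was -4.15. Cfb, which encodes the factor B that factor D cuts and was chosen after its values were seen, was low throughout, at 1.66 and 1.37 FPKM with Cus-1 and 2.84 and 1.84 FPKM with busulfan.

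Among the adipocyte markers measured beside Cfd, Fabp4 was at 1.44 and 2.47 FPKM with Cus-1 and 7.68 and 7.29 FPKM with busulfan. Adipoq overlapped, at 0.97 and 0.44 FPKM with Cus-1 and 0.77 and 1.26 FPKM with busulfan, and Lep was at 0.50 FPKM or less. Cidec was at 0.15 and 0.22 FPKM with Cus-1 and 0.93 and 0.67 FPKM with busulfan. Retn was at 0.34 and 0.39 FPKM with Cus-1 and 0.73 and 0.41 FPKM with busulfan. Of the 8 adipocyte markers 4 were tested, of which 1 was lower and 1 higher in both Cus-1 libraries and 2 overlapped. The summed FPKM of all 8 was 52.7 and 33.3 with Cus-1 and 29.7 and 39.9 with busulfan. Lipe was the largest part of this sum in every library, at 45.0 and 21.0 FPKM with Cus-1 and 14.1 and 17.3 FPKM with busulfan. The sum therefore mainly follows Lipe and does not describe the other adipocyte markers. The part of fat cells in the Cfd values was not tested.

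Cfp encodes properdin, which is made by myeloid cells and steadies the alternative convertase, and lies on chromosome X (20925454 to 20931555). It was at 4.04 and 7.25 FPKM in Cus-1 1 and Cus-1 2, against 9.81 and 9.25 FPKM in busulfan 1 and busulfan 2. Here the busulfan libraries were close together and the Cus-1 libraries far apart, and the means were 5.65 ± 2.27 FPKM with Cus-1 and 9.53 ± 0.396 FPKM with busulfan (SD, n = 2 each). The log2 fold change was -0.71 (SE 0.29, limma adjusted p = 0.189), with -0.35 without Cus-1 1 and -1.06 without Cus-1 2. Neutrophil markers, another myeloid source, summed to 1.28 and 0.940 FPKM with Cus-1 and 1.90 and 1.45 FPKM with busulfan. Camp was at 0.58 and 0.67 FPKM with Cus-1 and 1.56 and 1.18 FPKM with busulfan. It was the only neutrophil marker tested, and met the filter through the busulfan libraries alone. S100a9, Mpo, Elane and Ngp were at 0.50 FPKM or less, and S100a8 and Ly6g were not in the table.

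Serping1 encodes C1 inhibitor, the serpin that inactivates C1r and C1s, and lies on chromosome 2 (84765387 to 84775444). Per length it was the most abundant of the 9 genes in 3 of the 4 libraries, C1qa being higher in Cus-1 2 (89.5 against 87.4 FPKM). It was at 73.6 and 87.4 FPKM with Cus-1, against 207 and 122 FPKM with busulfan alone, with means of 80.5 ± 9.75 and 164 ± 60.1 FPKM (SD, n = 2 each). Busulfan 1 stood far above the other libraries. The log2 fold change was -0.98 (SE 0.29, limma adjusted p = 0.152), and -0.60 without busulfan 1. Relative to its target protease, Serping1 was at 2.90 and 2.68 times C1ra with Cus-1 and at 4.06 and 2.98 times with busulfan. The values of Serping1, C4b and C3 ran closely together, with C4b and Serping1 differing by a root mean square of 0.025 on the log2 scale once each gene's mean over the 4 libraries was removed.

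**Figure D2:**
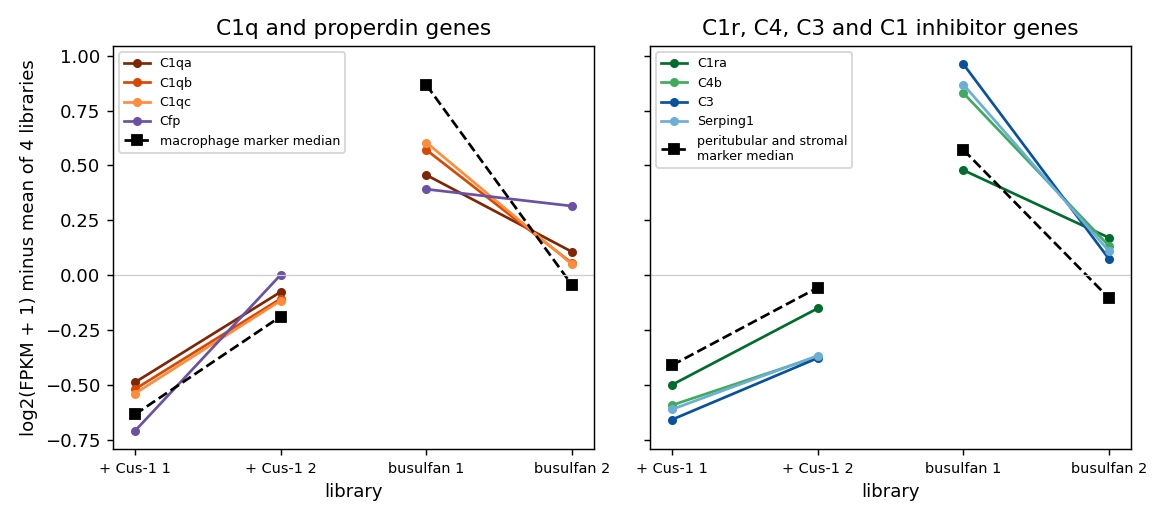
log2(FPKM + 1) minus the gene's mean over the 4 libraries (vertical axis) for C1qa, C1qb, C1qc and Cfp beside the macrophage marker median (left) and for C1ra, C4b, C3 and Serping1 beside the peritubular and stromal marker median (right); segments join the 2 libraries of a group, Cus-1 left of busulfan. C1q genes track the macrophage median except in busulfan 1, where that median is higher, while C4b, C3 and Serping1 run lower than the stromal median in both Cus-1 libraries. The macrophage median falls on Fcer1g in busulfan 1, on Laptm5 in Cus-1 2 and on Cd68 in Cus-1 1 and busulfan 2.

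Most macrophage and stromal markers also had negative log2 fold changes, and none of the marker genes passed the adjusted threshold. Of the 15 macrophage markers 9 were lower and 1 was higher in both Cus-1 libraries and 5 overlapped, with a median log2 fold change of -0.64, where 31.7% of all tested genes were lower and 36.6% higher. Their summed FPKM was 447 and 543 with Cus-1 and 804 and 638 with busulfan. The mean log2 level of the C1q genes stood 1.82 and 1.79 above the macrophage marker median in the Cus-1 libraries and 1.38 and 1.82 above it in the busulfan libraries, so that 3 of the 4 libraries were nearly equal. The distance of Cfp from that median was -1.51 and -1.25 with Cus-1 and -1.91 and -1.07 with busulfan, so the groups overlapped. The macrophage median was the level of Cd68 in Cus-1 1 and busulfan 2 (13.4 and 20.6 FPKM). It was that of Laptm5 in Cus-1 2 (18.6 FPKM) and of Fcer1g in busulfan 1 (39.6 FPKM), so these distances depend on the markers taken.

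The peritubular and stromal markers had a median log2 fold change of -0.63, with 7 of 10 lower in both Cus-1 libraries and 3 overlapping, and sums of 272 and 352 FPKM with Cus-1 and 606 and 372 FPKM with busulfan. Serping1 stood 2.62 and 2.51 above the stromal median on the log2 scale with Cus-1 and 3.12 and 3.03 with busulfan. For C3 the distances were -0.46 and -0.53 with Cus-1 and 0.18 and -0.04 with busulfan, and for C4b -0.14 and -0.27 with Cus-1 and 0.30 and 0.28 with busulfan. In these 3 genes both Cus-1 libraries were lower relative to the stromal median, whereas C1ra stood 1.12 and 1.12 above it with Cus-1 and 1.12 and 1.48 with busulfan. That median, taken within each library, differed between the groups by only -0.47. Single stromal markers had log2 fold changes from -0.96 (Pdgfra) to -0.11 (Cnn1), so these distances depend on the markers taken. All 13 Sertoli markers were lower in both Cus-1 libraries (median -0.75), and all 7 spermatocyte, 6 round spermatid and 7 elongating spermatid markers were higher. Over all tested genes, 31.7% were lower and 36.6% higher in both Cus-1 libraries. The part of the cell mixture in the complement values was not tested.

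Centring each library on its Sertoli or macrophage marker median moved the median over all genes up by 0.75 and 0.82 on the log2 scale, and turned C1qa, C1qb, C1qc, C1ra and Cfp to small positive values, 0.047 to 0.19 on Sertoli and 0.11 to 0.26 on macrophage markers. The macrophage median taken within each library differed between the groups by -0.82, whereas the median log2 fold change of its markers was -0.64. The uncentred values of C1qc (-0.65), C1ra (-0.65) and Cfp (-0.71) lay between these, so their signs on macrophage centring depend on the summary taken. Centring adds the same amount to every gene's log2 fold change, so places relative to the median of all genes are fixed. C4b, C3, Serping1 and Cfd were still negative under both, with Cfd at -1.61 and -1.55. All 9 were below the median of all genes, 0.80 and 0.86, as they were without centring.

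**Figure D3:**
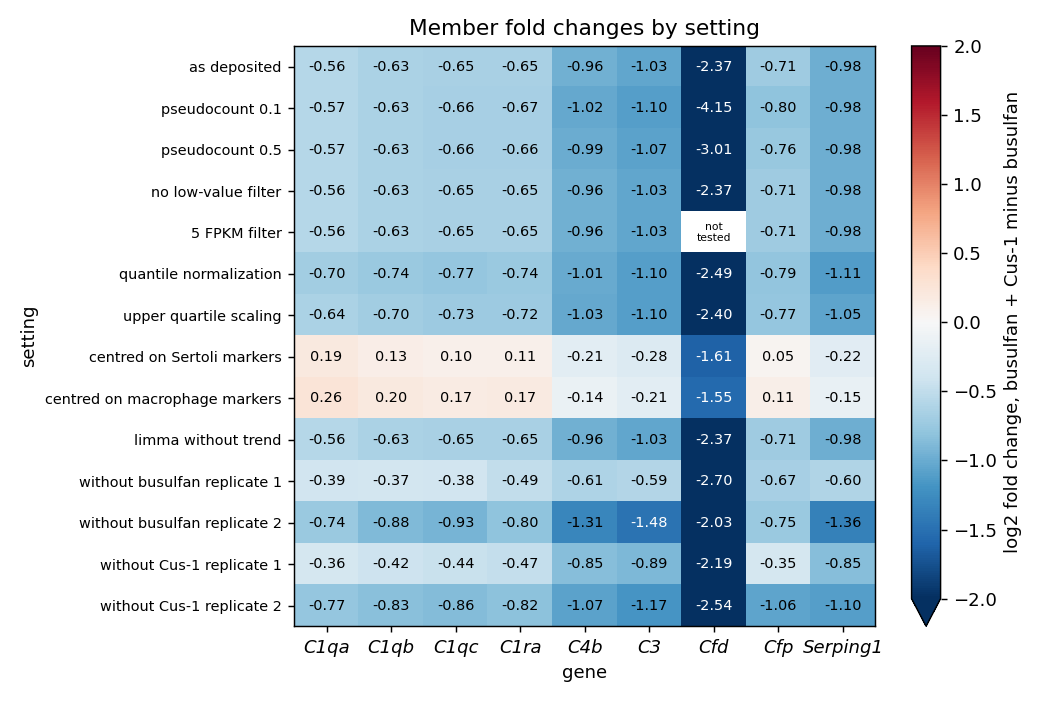
log2 fold changes, busulfan with Cus-1 minus busulfan, of the 9 complement genes (columns) under each processing setting (rows), printed in the cells and coloured on a scale that ends at -2 and 2. The values are negative throughout except for C1qa, C1qb, C1qc, C1ra and Cfp when libraries are centred on Sertoli or macrophage markers, and Cfd was not tested with a 5 FPKM filter.

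The complement system beyond the 9 genes was read from 7 lists by role, with 52 genes, of which 50 were in the table and 37 were tested. Without the 9 members, 28 were tested, with a median log2 fold change of -0.46. Of these, 15 were lower and 3 higher in both Cus-1 libraries and 10 overlapped, where 31.7% of all tested genes were lower and 36.6% higher. At an unadjusted limma p under 0.05 there were 6 lower and 1 higher, against 9.96% and 18.0% of all genes, and none passed the adjusted threshold. Over all 37 genes the lower count was 12, and it was 2 when busulfan 1 or Cus-1 1 was left out and 19 when Cus-1 2 was.

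**Figure D4:**
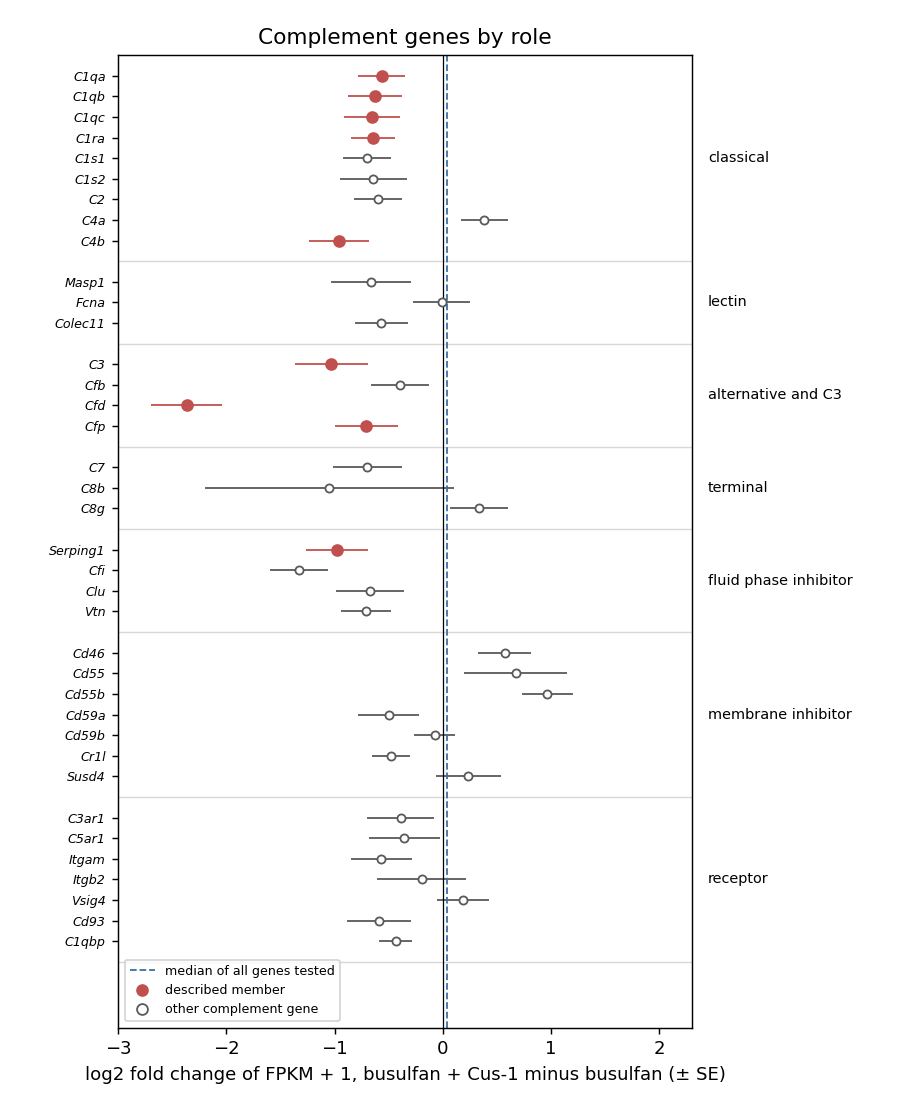
log2 fold change of FPKM + 1, busulfan with Cus-1 minus busulfan, with its SE (horizontal axis) for the 37 tested complement genes grouped by role; filled points are the 9 members and the dashed line is the median of all genes tested, 0.04. Soluble components and fluid phase inhibitors lie left of the line apart from C4a and C8g, and the membrane inhibitors lie on both sides.

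Of the fluid phase inhibitors, Serping1 included, 4 of 4 tested genes lay lower in both Cus-1 libraries, as did 31.7% of all tested genes. Their median log2 fold change was -0.84, and none passed the adjusted threshold. Cfi encodes factor I, which cuts C3b and C4b, and was at 1.43 and 2.34 FPKM with Cus-1, against 6.76 and 5.61 FPKM with busulfan alone (log2 fold change -1.33, SE 0.27, limma adjusted p = 0.152). Clu, the clusterin gene of Sertoli cells, whose product also blocks the terminal complex, was at 1783 and 2235 FPKM with Cus-1, against 3873 and 2613 FPKM with busulfan (-0.67, SE 0.31, limma adjusted p = 0.215, -0.39 without busulfan 1 and -0.28 with quantile normalization). Of the classical list, 8 of 9 tested genes had both Cus-1 libraries lower, C4a being the exception. C2, the other substrate of C1s, was at 51.7 and 76.4 FPKM with Cus-1, against 98.3 and 92.8 FPKM with busulfan (-0.60, SE 0.22, limma adjusted p = 0.172, and -0.32 without Cus-1 1).

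Lectin and terminal components were sparse. Masp1, a protease of the lectin pathway, was at 2.76 and 5.96 FPKM with Cus-1, against 8.39 and 5.98 FPKM with busulfan, so Cus-1 2 and busulfan 2 were level. Colec11, a collectin, was at 0.92 and 0.82 FPKM with Cus-1, against 2.03 and 1.54 FPKM with busulfan, and met the filter through the busulfan libraries alone. The ficolin gene Fcna overlapped, at 6.51 and 9.06 FPKM with Cus-1 and 6.55 and 9.17 FPKM with busulfan. Of the terminal genes only C7 was abundant, at 104 and 151 FPKM with Cus-1, against 261 and 158 FPKM with busulfan. Its groups were separate by a narrow margin, and its log2 fold change of -0.70 (SE 0.32, limma adjusted p = 0.210) was -0.34 without busulfan 1, -0.43 without Cus-1 1 and -1.06 without busulfan 2. C8b ranged widely within the Cus-1 group, at 0.27 and 13.3 FPKM, against 5.79 and 10.4 FPKM with busulfan, and C8g overlapped, at 16.9 and 12.7 FPKM with Cus-1 and 9.25 and 14.0 FPKM with busulfan. Hc, which encodes C5, and C6, C8a and C9, all named after their values were seen, stayed below the filter, at 0.77 FPKM or less.

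Membrane inhibitors, which shield a cell's own surface, gave 2 of 7 tested genes lower, 2 higher and 3 overlapping, shares near those over all tested genes (31.7% lower and 36.6% higher). Cd55b, the decay-accelerating factor copy that mice express in testis, was at 163.8 and 124 FPKM with Cus-1, against 61.9 and 84.5 FPKM with busulfan (log2 fold change 0.97, SE 0.23, limma adjusted p = 0.152). Cd46, which in mice is confined largely to testis and sperm and was chosen after its values were seen, was at 2.03 and 1.67 FPKM with Cus-1, against 1.02 and 0.81 FPKM with busulfan (0.57, SE 0.24, limma adjusted p = 0.194, and 0.94 with a pseudocount of 0.1). These were the higher genes, and the lower ones were Cr1l and Cd59a. Cr1l encodes Crry, the broadly expressed rodent regulator of C3 convertases, and was at 29.9 and 37.9 FPKM with Cus-1, against 48.9 and 45.9 FPKM with busulfan (-0.48, SE 0.18, limma adjusted p = 0.170, and -0.32 without Cus-1 1). Cd59a, which blocks the membrane attack complex, was at 24.9 and 42.5 FPKM with Cus-1, against 50.02 and 43.18 FPKM with busulfan, so that Cus-1 2 and busulfan 2 were level. Cd55b and Cd59a have close copies, Cd55 and Cd59b, between which fragments could be divided.

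Complement receptors were mostly low. Itgam, a chain of the receptor for C3 fragments on myeloid cells, was at 1.11 and 1.63 FPKM with Cus-1, against 3.04 and 2.02 FPKM with busulfan. Itgb2, its partner chain, overlapped, at 2.47 and 6.19 FPKM with Cus-1 and 5.58 and 3.97 FPKM with busulfan, as did Vsig4, a macrophage receptor for C3b, at 5.79 and 8.08 FPKM with Cus-1 and 6.39 and 5.41 FPKM with busulfan. C1qbp, whose product binds C1q but resides mainly in mitochondria, was at 53.2 and 60.5 FPKM with Cus-1, against 81.1 and 73.3 FPKM with busulfan (-0.44, SE 0.15, limma adjusted p = 0.166).

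Genes of like pattern were sought among 9382 tested genes with a mean of at least 10 FPKM, by the root mean square difference between log2 values centred on each gene's mean over the 4 libraries. Among the closest to the mean C1q pattern were Papss2 (0.0058) and Hmgn5 (0.015). For C3 they were Gm75098 (0.062), the Fc receptor chain gene Fcer1g (0.063) and Trim47 (0.067), for C4b Dpysl4 (0.037), Rnase4 (0.044) and Arl4d (0.055), and for Serping1 Dpysl4 (0.048), Rnase4 (0.050) and Gm75098 (0.065). Cfp lay nearest to Mgarp (0.014), Rpl36a-ps2 (0.021) and Smarca1 (0.027). No candidate came as near to Cfd, whose closest were Gm53575 (0.32), Mid1 (0.37) and the chemokine gene Ccl8 (0.39). Cfd itself averaged 2.88 FPKM, below the 10 FPKM asked of candidates, so genes at its level were not searched. The root mean square difference also grows with the size of a gene's change, which was largest for Cfd among the members. With 4 libraries many genes share a pattern, so these are descriptions only.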

How the data were processed

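The authors deposited 1 table of FPKM values per gene and library, printed to 2 decimals, with mm10 as genome build per the submitters' processing notes. Which aligner, counter, annotation, strand setting and filters were used is not given in the sources used here. Each column was matched to its sample by the library name in the labels. Of 45536 rows with values, 910 had a dash for a name, held 0.641% to 0.688% of summed FPKM and were left out. Where a symbol stood on several rows (115 symbols, no member), the row with the highest mean was used. Genes with 2 or more libraries at or above 1 FPKM were tested with limma 3.58.1 (R 4.3.3, mean-variance trend) on log2(FPKM + 1), two-sided, with Benjamini-Hochberg adjustment over all 19837 genes. A positive fold change means higher with Cus-1, and the added 1 FPKM shrinks the changes of low genes. The procedure was run on simulated data. The simulated noise was independent between genes and smaller than the spread fitted for any member. The outcome of that run therefore does not carry over to these data. An exact permutation test of 2 against 2 libraries cannot go below 0.333. Depth was estimated as the fragment number at which FPKM times length came closest to whole numbers, over genes with 1 transcript of 400 to 2000 bases, and is uncertain. The members and lists were chosen with earlier results of these data known. The rule for named genes took the 9 members and, per list, the 3 most abundant tested genes and the 2 with the smallest p, and genes outside it are marked as chosen after their values were seen. A gene of the wider lists and a gene of like pattern are not reported here.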

Additional observations from a re-analysis of the deposited data

How the results depend on the processing

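The negative log2 fold changes of the 9 members held under pseudocounts of 0.1 and 0.5, no low-value filter, a 5 FPKM filter (8 members, since Cfd was below it, as were Cd46, Colec11 and Itgam), quantile normalization, upper quartile scaling, limma without trend and leaving out each library. The filters and the trend setting cannot change a fold change. Pseudocounts and leaving out a library cannot turn its sign where the groups do not overlap, as in all 9 members. Of these settings only quantile normalization and upper quartile scaling could have turned a sign. Quantile normalization shifted the median of all genes by -0.10. Centring was the exception. On Sertoli markers the values were C1qa 0.19, C1qb 0.13, C1qc 0.10, C1ra 0.11, Cfp 0.047, C1qbp 0.32, C1s1 0.053, C2 0.16, C7 0.057, Cd59a 0.25, Clu 0.082, Colec11 0.18, Cr1l 0.27, Fcna 0.74, Itgam 0.19, Itgb2 0.56 and Masp1 0.092, the classical median was 0.11, that of C3, Cfd and Cfp -0.28 and that of all members 0.047. On macrophage markers they were C1qa 0.26, C1qb 0.20, C1qc 0.17, C1ra 0.17, Cfp 0.11, C1qbp 0.39, C1s1 0.12, C2 0.23, C7 0.12, Cd59a 0.32, Clu 0.15, Colec11 0.25, Cr1l 0.34, Fcna 0.81, Itgam 0.25, Itgb2 0.63 and Masp1 0.16, with medians of 0.17, -0.21 and 0.11. Members lower in both Cus-1 libraries then numbered 1 (Sertoli) and 2 (macrophage), members at unadjusted limma p under 0.05 1 and 1, lower genes of the wider list 1 and 1 and higher ones 9 and 2. Past the adjusted threshold on Sertoli centring were 1 member, Cfd, and 8994 of all genes. Cfd met the low-value filter through its busulfan values alone. The wider list, members included, had 6 genes past it. These were Cfd, lower, and C4a (1.14), C8g (1.09), Cd46 (1.33), Cd55b (1.72) and Vsig4 (0.94), higher with Cus-1. On macrophage centring 62 of all genes were past it. Over all genes 59 and 25 were lower at unadjusted p under 0.05, and 11393 were higher on Sertoli centring. Without trend 2 genes of the wider list were higher. The cause was not tested, beyond the shift of all genes that centring itself makes.

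Leaving out each library in turn, medians ran from -0.88 to -0.39 (classical), -1.48 to -0.67 (C3, Cfd and Cfp) and -1.06 to -0.47 (all members). Members at unadjusted p under 0.05 numbered 1 to 9, lower genes of the wider list 2 to 19, higher ones 0 to 2, and genes overall 426 to 1996 lower and 1159 to 3821 higher, with 0 to 7 past the adjusted threshold, the 7 without Cus-1 1. C8b ran from -2.79 to 0.70, Fcna from -0.23 to 0.20, Itgb2 from -0.72 to 0.33 and Vsig4 from -0.020 to 0.40. A lone library was assumed to vary like the others. No paired analysis was possible because the labels give no replicate numbers, the numbers used here being names in order of submission. Depth limits Cfd, with about 1.23 and 4.51 estimated fragments in the Cus-1 libraries, while the number of libraries, 2 a group, limits the precision for the other members.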

Other observations

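A few genes of the marker lists set beside complement departed from their lists, chosen after their values were seen. Aif1, on the macrophage list, was at 129.3 and 60.5 FPKM in Cus-1 1 and Cus-1 2, against 44.8 and 49.0 FPKM in busulfan 1 and busulfan 2, and was the only macrophage marker of the 15 higher in both Cus-1 libraries. Lipe, on the adipocyte list, was at 45.0 and 21.0 FPKM with Cus-1, against 14.1 and 17.3 FPKM with busulfan, and made up most of that list's sum in Cus-1 1. Cd74, the invariant chain of antigen presentation, had the lowest log2 fold change of the macrophage list, at 18.4 and 17.3 FPKM with Cus-1 against 88.3 and 63.2 FPKM with busulfan (-2.01). Its Cus-1 libraries were level, unlike those of the C1q genes.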
